A study of Mus musculus with 6106 samples.

Results

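Coinhibitory receptors are surface proteins that restrain T cells. Genes of such receptors (Pdcd1, Ctla4, Lag3, Tigit and Btla) were studied together with Cd200, the gene of an inhibitory ligand, and Tox. Tox encodes a nuclear factor that accompanies sustained receptor signalling. All were followed across 3 levels of an Nr4a1 reporter in splenic regulatory T cells (Tregs). The members were listed by name, and all 7 had a row in the table of 23725 genes and passed the minimum of 50 UMIs over the 3 libraries, which 8633 genes met. Lag3 had the fewest transcripts, with 101 UMIs in all, and Tigit and Pdcd1 also rested on few, with 61 UMIs or fewer of Tigit in any bin and 27 of Pdcd1 in GFPlow. The source was the spleen of male B6 mice, 10 months old, which carry Nr4a1-Gfp, where green fluorescent protein (GFP) reports Nr4a1, and Foxp3-Ires-Thy1.1, a surface reporter of Foxp3. Live TCRb+ CD4+ Foxp3-Thy1.1+ cells were sorted by GFP. The bin GFPhigh took the range from 80 to 100 percent, GFPmed that from 40 to 60 and GFPlow that from 0 to 20, and each became 1 inDrops library, a droplet method that counts transcripts of single cells by unique molecular identifiers (UMIs). All 3 groups share both reporters and received no treatment named in the labels, and how many mice stand behind a library is not stated.

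Engagement of the T cell receptor (TCR) sets off calcium and MAP kinase signals that induce immediate early factors such as Nr4a1, and several inhibitory receptors are induced in the same period. PD-1, TIGIT and BTLA carry inhibitory tyrosine motifs in their tails that recruit phosphatases, CTLA-4 competes with the costimulator CD28 for its ligands on antigen-presenting cells, LAG-3 binds MHC class II, and CD200 is itself a ligand that inhibits cells with the CD200 receptor. In Tregs CTLA-4 is a core effector molecule held at the surface or in vesicles, PD-1 is a known mark of follicular and of stimulated Tregs, and TOX is known from exhausted T cells and from thymocyte development.

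A minimum of 500 UMIs kept 5435 of 6106 cells, among them 1775 GFPhigh and 1537 GFPmed cells, the rest being GFPlow. The bins held 2270376 UMIs (GFPhigh), 2512277 (GFPmed) and 2435870 (GFPlow), and depth was greatest in GFPmed, where the median cell had 750 genes with a UMI, against 622 in GFPhigh, and median UMIs were 1129 in GFPhigh and 1085 in GFPlow. A level is the number of UMIs of a gene in 1000000 UMIs of its bin, abbreviated UPM, and 0.5 UMI was added to each count before a log2 ratio. With 1 library per bin there was no replicate and no test, library and bin cannot be told apart, and intervals in brackets are exact 95% intervals for counting error only. The sort was visible in the transcripts, since Nr4a1 stood at 340.47 UPM in GFPhigh, 92.7 in GFPmed and 35.7 in GFPlow, and all 7 listed Treg and T cell markers were detected, with Foxp3 at 359 UPM in GFPhigh, 317 in GFPmed and 390 in GFPlow. The cells of the 3 libraries shared 95 barcodes, and leaving out the cells that carried them was among the alternatives tried. Markers of other cell types were present at summed levels of 245.5 to 328.4 UPM for 9 B cell genes, 66.9 to 326 for 4 plasma cell genes, 75.1 to 224.1 for 10 myeloid genes (S100a8 and S100a9 at 0), 131.8 to 216.5 for 8 CD8 T or NK genes, 1051 to 3002 for 7 erythroid genes and 0.821 to 1.59 for 4 platelet genes (Ppbp at 0).

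The sequences just upstream of 3 members are shown because Pdcd1 and Cd200 had the largest ratios between the outer bins among the genes found in the promoter table, whereas Tigit was level. The table, from RefSeq on GRCm38.p6, held 5 of the 7 members. Each line gives the 250 bases before the transcript start, 5′ to 3′ on the gene's strand. Capitals mark, on either strand, the NFAT core GGAAA (read as TTTCC on the other strand), the EGR motif GCGNGGGCG and the GC box GGGCGG, the last 2 of which can overlap.
Pdcd1, chr1:94052554-94052803, minus strand: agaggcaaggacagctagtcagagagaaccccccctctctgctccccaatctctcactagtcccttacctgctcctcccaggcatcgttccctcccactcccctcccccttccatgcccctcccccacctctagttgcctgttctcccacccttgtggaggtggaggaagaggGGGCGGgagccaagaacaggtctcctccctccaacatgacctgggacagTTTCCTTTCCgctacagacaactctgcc
Cd200, chr16:45409054-45409303, minus strand: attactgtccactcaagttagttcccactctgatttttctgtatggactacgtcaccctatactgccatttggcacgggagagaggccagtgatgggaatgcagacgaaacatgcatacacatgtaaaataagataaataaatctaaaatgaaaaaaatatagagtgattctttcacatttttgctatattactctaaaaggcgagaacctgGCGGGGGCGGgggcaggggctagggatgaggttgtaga
Tigit, chr16:43664185-43664434, minus strand: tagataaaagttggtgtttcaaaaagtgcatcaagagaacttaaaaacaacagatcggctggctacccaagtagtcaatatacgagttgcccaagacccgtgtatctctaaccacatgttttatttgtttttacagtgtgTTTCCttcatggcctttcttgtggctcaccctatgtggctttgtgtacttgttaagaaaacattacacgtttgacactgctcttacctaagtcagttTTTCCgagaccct

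Pdcd1 held 2 adjoining NFAT cores at 28 to 19 bases before the start and 1 GC box. Cd200 held 1 EGR match at 38 to 30 bases before the start, overlapping a GC box, and no NFAT core. Tigit also held 2 NFAT cores, at 110 to 106 and 13 to 9 bases before the start. Ctla4 had 1 NFAT core and Btla no match of any kind. Neither the NR4A motif AAAGGTCA nor the AP-1 motif TGANTCA occurred in the 5 windows. Over 32851 promoters of the same 250 bases, 55.6% held the NFAT core, 32.7% the GC box, 4.70% the EGR motif, 6.75% the AP-1 motif and 1.34% the NR4A motif. A match is a description of letters and not evidence of binding.

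GFPhigh Tregs carried more Pdcd1, Cd200 and Lag3 transcripts than GFPlow Tregs, each by at least 2-fold, and more Tox and Ctla4 by less, while Tigit and Btla stood close to level. For 5 of the 7 members the interval of the ratio lay above 0, and for none below it, while over all genes the interval lay above 0 for 14.8% and below 0 for 10.6%. Of all 8633 genes 2.77% were at least 2-fold higher and 1.74% at least 2-fold lower in this comparison, against 3 and 0 of the 7 members. The median log2 ratio was 0.91 over the members and 0.04 over all genes. The 7 genes together took 536 UPM [506, 567] in GFPhigh, against 323 [301.4, 346] in GFPmed and 313 [291.4, 336] in GFPlow.

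**Figure D1:**
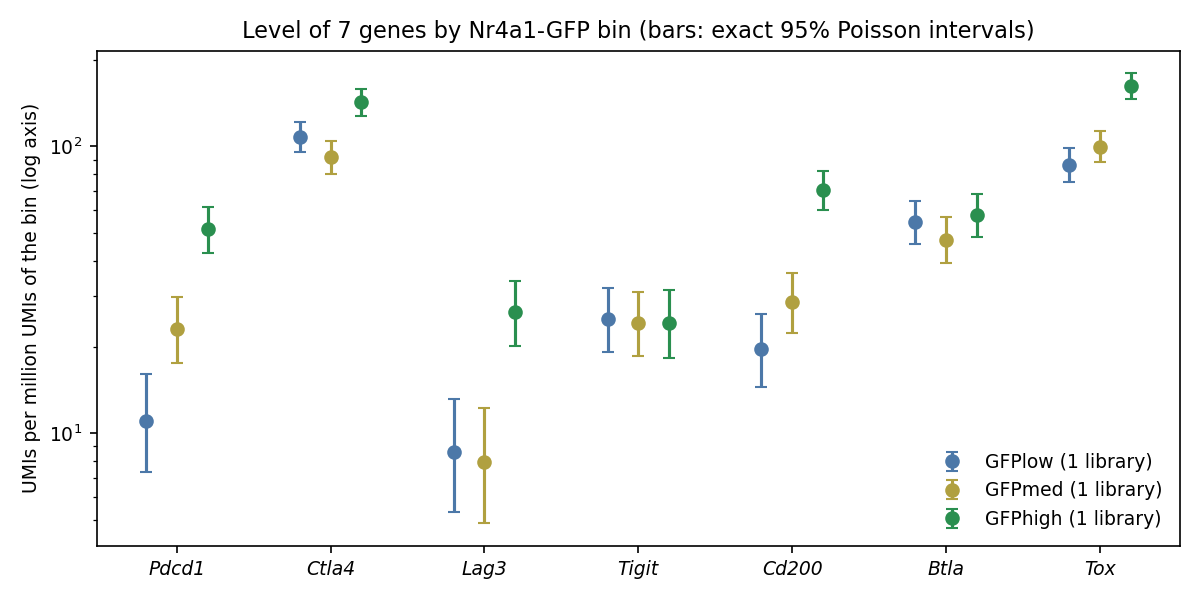
Level of the 7 genes in UPM (log axis) by GFP bin, each point 1 library and each bar an exact 95% Poisson interval. Pdcd1 goes from 11.1 through 23.1 to 51.5 UPM and Tigit stays between 24.2 and 25.04.

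Pdcd1, which encodes PD-1, the receptor of PD-L1 and PD-L2, lies on chromosome 1, 94038305 to 94052553, minus strand (mm10, GENCODE M21). It had 27 UMIs in GFPlow and 58 in GFPmed, and its level was 51.5 UPM [42.6, 61.8] in GFPhigh, 23.1 [17.5, 29.8] in GFPmed and 11.1 [7.30, 16.1] in GFPlow. The 3 intervals did not overlap, so Pdcd1 was the member with a step at each bin. Between the outer bins its log2 ratio was 2.20 [1.60, 2.88], rank 28 from the highest of 8633 genes. From GFPlow to GFPmed it was 1.04 [0.38, 1.77], and from GFPmed to GFPhigh 1.15 [0.69, 1.64]. The first step was at the edge of 2-fold and became 0.47 when each cell was thinned to 500 UMIs. A Pdcd1 UMI was found in 25 GFPlow, 38 GFPmed and 89 GFPhigh cells, at most 5 in a cell, and no cell held more than 7.41% of a bin's Pdcd1 UMIs.

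Cd200 (chromosome 16, 45382135 to 45409053, minus strand) encodes a surface glycoprotein of lymphocytes that acts on the CD200 receptor of neighbouring cells. It had 160 UMIs in GFPhigh, 72 in GFPmed and 48 in GFPlow, or 70.5 UPM [60.0, 82.3], 28.7 [22.4, 36.1] and 19.7 [14.5, 26.1]. GFPhigh stood apart from both other bins, whose intervals overlapped. The log2 ratio was 1.83 [1.36, 2.34] for GFPhigh over GFPlow, rank 44 of 8633. The lower step was 0.54 [-0.01, 1.10] and the upper, from GFPmed to GFPhigh, 1.29 [0.89, 1.72]. With cells thinned to 500 UMIs the outer ratio was 1.35. Of the GFPhigh cells 96 held 1 Cd200 UMI, 15 held 2 and 10 held 3 or more.

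Lag3 (chromosome 6, 124904361 to 124911705, minus strand), the gene of a CD4-related receptor of MHC class II, had 60 UMIs in GFPhigh, 20 in GFPmed and 21 in GFPlow, or 26.4 UPM [20.2, 34.02], 7.96 [4.86, 12.3] and 8.62 [5.34, 13.2]. The 2 lower bins could not be separated at this depth, with a log2 ratio of -0.11 [-1.07, 0.84]. With all UMIs the step lay between GFPmed and GFPhigh, at 1.71 [0.98, 2.54]. That step was 0.76 with thinned cells, and the ratio of GFPmed over GFPlow was then 0.61. After thinning 7 GFPlow, 10 GFPmed and 18 GFPhigh cells still held a Lag3 UMI. The size of each step is therefore poorly fixed. The outer ratio was 1.59 [0.88, 2.41], rank 64 of 8633. In GFPlow 1 of the 16 cells with Lag3 held 4 of the 21 UMIs.

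Tox (chromosome 4, 6686353 to 6991557, minus strand; the antisense gene Gm11802 overlaps it, and whether counting used strand is not given) encodes a high mobility group protein of chromatin. It had 369 UMIs in GFPhigh, and its level was 162.5 UPM [146.4, 180] there, 99.9 [87.9, 113] in GFPmed and 86.2 [74.9, 98.7] in GFPlow. GFPhigh again stood apart, while the intervals of GFPlow and GFPmed overlapped. The log2 ratio was 0.91 [0.67, 1.17] for GFPhigh over GFPlow, a 1.88-fold difference, of which 0.70 [0.47, 0.94] fell between GFPmed and GFPhigh and 0.21 [-0.06, 0.48] below GFPmed.

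Ctla4 (chromosome 1, 60887000 to 60915832, plus strand; a processed pseudogene, Rpl18-ps1, lies within it) had a level of 142.7 UPM [127.6, 159.1] in GFPhigh, with 324 UMIs, of 91.9 [80.5, 104.6] in GFPmed and of 107.97 [95.3, 121.8] in GFPlow. The order was therefore not graded, since GFPmed had the lowest value, although its interval overlapped that of GFPlow. Its log2 ratio was 0.40 [0.16, 0.64] for the outer bins and 0.63 [0.39, 0.88] for GFPhigh over GFPmed. At ranks 1497 and 609 of 8633 genes, these ratios were far less extreme among genes than those of Pdcd1.

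Tigit and Btla, both on chromosome 16, showed no separation of the bins. Tigit (43648867 to 43664146, minus strand), whose product competes with the activating receptor CD226 for nectin-type ligands, had 61, 61 and 55 UMIs, or 25.04 UPM [19.2, 32.2], 24.3 [18.6, 31.2] and 24.2 [18.2, 31.5]. Its log2 ratio for GFPhigh over GFPlow was -0.05 [-0.60, 0.50], so a difference within that interval was not detectable at this depth. No cell held more than 2 Tigit UMIs. Btla (45224315 to 45257670, plus strand), the receptor of HVEM, had a level of 57.7 UPM [48.2, 68.5] in GFPhigh, 47.4 [39.2, 56.7] in GFPmed and 54.6 [45.7, 64.7] in GFPlow, and the outer bins differed by a log2 ratio of 0.08 [-0.28, 0.44].

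Compared pair by pair, the members differed little between GFPlow and GFPmed. Pdcd1 alone of the 7 was at least 2-fold higher in GFPmed than in GFPlow and none was at least 2-fold lower, where 1.27% and 1.26% of all genes were. The median log2 ratio over the members was -0.04, equal to that of all genes. Between GFPmed and GFPhigh 3 members (Lag3, Cd200 and Pdcd1) were at least 2-fold higher and none lower, where 1.88% and 0.985% of all genes were, and the median was 0.70 against 0.08. Because the pairs share libraries, these comparisons are not independent of each other. GFPmed lay at 29.7% of the way from the GFPlow to the GFPhigh level for Pdcd1, 17.9% for Tox and 17.6% for Cd200.

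**Figure D2:**
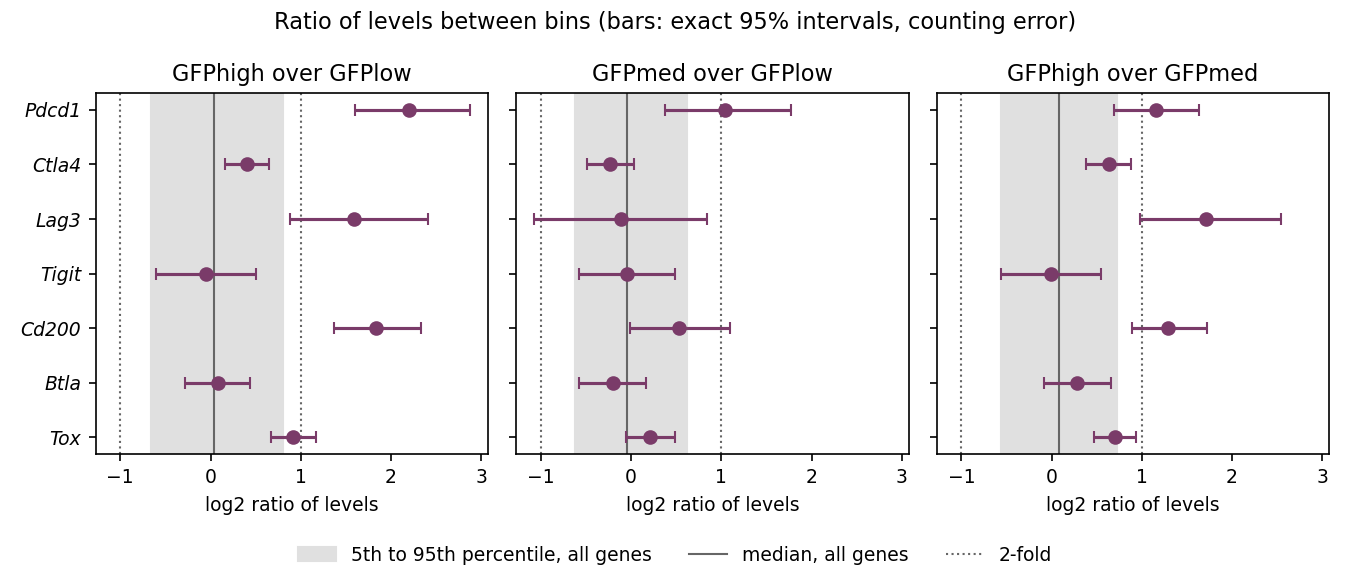
Log2 ratio of levels for the 7 genes in the 3 pairs of bins, with exact 95% intervals for counting error. The grey band is the 5th to 95th percentile over all 8633 genes and dotted lines mark 2-fold. Pdcd1 (2.20), Cd200 (1.83) and Lag3 (1.59) lie beyond the band for GFPhigh over GFPlow, and so does Tox (0.91).

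For Pdcd1, Tox, Cd200, Ctla4 and Lag3 the share of cells with a transcript was highest in GFPhigh, as the level was. With each cell thinned to the same 500 UMIs, Pdcd1 was found in 2.48% of GFPhigh cells [1.81, 3.31], 0.911% of GFPmed [0.499, 1.52] and 0.659% of GFPlow cells [0.361, 1.10] (exact Clopper-Pearson intervals), against 5.01%, 2.47% and 1.18% without thinning. For the other genes the order of bins is GFPlow, GFPmed, GFPhigh. For Tox the thinned shares were 3.91% [3.13, 4.82], 4.42% [3.45, 5.58] and 7.66% [6.47, 8.999], against 7.35%, 10.8% and 15.2% without thinning. For Cd200 they were 1.08% [0.688, 1.62], 1.24% [0.746, 1.92] and 2.82% [2.10, 3.70], against 2.03%, 3.71% and 6.82%. In Pdcd1, Tox and Cd200 GFPhigh lay above both other bins without overlap of the intervals of the thinned shares. Those of GFPlow and GFPmed overlapped in each of these 3 genes, so the thinned share of Pdcd1 did not separate the lower bins. The shares of Ctla4 were 5.18% [4.28, 6.21], 3.77% [2.88, 4.85] and 6.70% [5.58, 7.97], with GFPmed lowest as in the level, and 10.4%, 11.4% and 13.8% before thinning. Lag3 was found in 0.330% [0.133, 0.678], 0.651% [0.312, 1.19] and 1.01% [0.602, 1.60] of cells, and these intervals overlapped from bin to bin. Those of Tigit (1.27%, 1.17% and 1.46%) and Btla (3.11%, 2.28% and 2.37%) lay close together, with Btla highest in GFPlow.

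Transcripts free in the suspension can enter any droplet, so cells that should lack these genes were read the same way. The 48 cells with at least 5 UMIs of B cell markers and none of Foxp3, Cd3d, Cd3e or Cd3g had a median depth of 1033 UMIs, against 1208 over all cells used. They held 0 UMIs of Pdcd1, Ctla4 and Tox among 60365, which allows up to 49.7 UPM, and 0 cells with any of these 3, which allows a share of up to 6.25%. The gate itself leaves out B cell droplets that took up free Foxp3 or Cd3 transcripts, so its limits may be too low. The Ctla4 and Tox levels of the Tregs exceeded the limit of 49.7 UPM, pooled over the 3 libraries, in every bin, but for the same reason this does not separate them from free transcripts. The interval of Pdcd1 lay above that limit in no bin. By the same rule, the B cells of a single library allowed up to 184.5 UPM in GFPlow (15 cells), 130.8 in GFPmed (15) and 141.7 in GFPhigh (18). Ctla4 and Tox lay below these limits in GFPlow and GFPmed. In GFPhigh both lay above 141.7 UPM but below the exact upper limit of 174.2. Cd200 had 2 UMIs there, 33.1 UPM [4.01, 120], and Lag3 and Tigit 1 each, 16.6 UPM [0.419, 92.3], so for these genes the few B cells could not separate a low Treg level from free transcripts. Of the thinned shares of Pdcd1, Ctla4 and Tox, that of Tox in GFPhigh was the one whose interval lay above the 6.25% limit (7.66% [6.47, 8.999]), and the interval of Ctla4 there (6.70% [5.58, 7.97]) reached below it. The exact upper limit was 7.40% for the 48 cells and 18.5% for the 18 of GFPhigh. The Tox interval reached below the first and lay wholly below the second. The shares of these 3 genes were therefore not separated from free transcripts. Btla was different, with 16 UMIs in these cells, a level of 265 UPM [151.5, 430]; BTLA is a known receptor of B cells as well. Summed B cell markers stood at 311 UPM in GFPhigh, 328.4 in GFPmed and 245.5 in GFPlow. The 4 plasma cell markers were highest in GFPhigh, at 325.9 UPM, with 66.9 in GFPmed and 100.6 in GFPlow, and their part in the GFPhigh results was not tested beyond the ratios that follow. Without the cells (78 of GFPhigh, 66 of GFPlow) that held at least 2 marker UMIs of any other cell type, the log2 ratio of GFPhigh over GFPlow was -0.01 for Btla, 2.20 for Pdcd1, 1.83 for Cd200, 1.61 for Lag3, 0.94 for Tox and 0.40 for Ctla4.

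In GFPhigh, Pdcd1, Cd200, Ctla4 and Tox were higher in cells with early response transcripts. The stimulated gate took cells with at least 2 UMIs, after thinning, over 12 genes including Nr4a1, Egr1, Egr2, Tnfrsf9, Cd83, Irf4 and Myc, none of them a member. It held 56 GFPlow cells (2.64%), 68 GFPmed cells (4.42%) and 11.5% of the GFPhigh cells. In GFPhigh the level of Pdcd1 was 113 UPM in the gate and 43.4 outside it, a log2 ratio of 1.40 [0.73, 1.99]. Cd200 stood at 146.9 against 60.4 UPM (1.30 [0.72, 1.81]), Ctla4 at 218.5 against 132.7 UPM (0.73 [0.28, 1.13]) and Tox at 248.6 against 151.1 UPM (0.73 [0.31, 1.11]). In the other bins the gates held fewer UMIs, and intervals spanned 0 for Cd200 (1.14 [-0.46, 2.23] in GFPmed and 2.07 [-0.02, 3.37] in GFPlow), for Tox (0.66 [-0.21, 1.35] and 0.80 [-0.52, 1.72]) and for Ctla4 in GFPlow (0.92 [-0.17, 1.72]), though not in GFPmed (1.54 [0.87, 2.11]). Btla, level between bins, was also higher in the gate, at 102 against 51.9 UPM (0.99 [0.30, 1.59]), and at 1.05 [0.34, 1.67] without cells holding markers of other types. In GFPmed its ratio was -0.19 [-2.25, 1.04] and in GFPlow 0.53 [-1.54, 1.75], from 4 UMIs in each gate. Tigit did not separate, at 22.6 against 24.4 UPM (-0.01 [-1.63, 1.11]), and Lag3 had 11 UMIs in the gate (0.81 [-0.33, 1.72]). With the gate at 1 UMI the Ctla4 ratio in GFPhigh was 0.20 [-0.16, 0.55], so that its separation depended on the gate. That of Lag3 did too. At 1 UMI its ratio was 1.03 [0.22, 1.81] in GFPhigh, 0.18 [-2.42, 1.79] in GFPmed and 2.46 [0.95, 3.81] in GFPlow. The Lag3 UMIs in those gates were 25, 3 and 8.

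The same gate picked out Pdcd1 in the other bins, where it was rare overall. In GFPmed the 68 gated cells held 15 of the 58 Pdcd1 UMIs, 140 UPM against 17.9 outside (log2 ratio 3.004 [2.02, 3.85]), and 26 Ctla4 UMIs, 243.4 against 85.2 UPM (1.54 [0.87, 2.11]). In GFPlow the 56 gated cells held 5 of the 27 Pdcd1 UMIs, 87.1 against 9.25 UPM (3.34 [1.48, 4.67]). The Pdcd1 level inside the gate was thus 113 UPM [76.2, 161.3] in GFPhigh, 140 [78.6, 232] in GFPmed and 87.1 [28.3, 203.3] in GFPlow, with intervals that overlapped, whereas outside it the level was 43.4 [34.8, 53.5], 17.9 [12.9, 24.1] and 9.25 [5.80, 14.004]. The difference between gates and between bins was not tested.

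**Figure D3:**
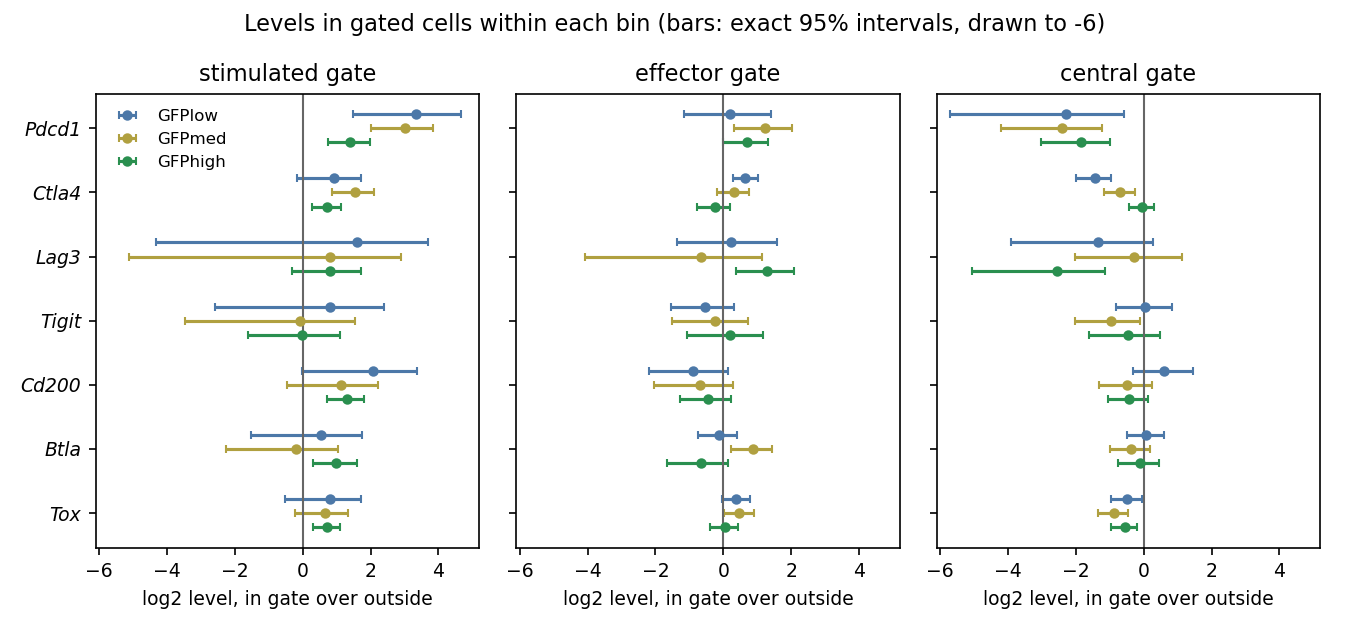
Log2 ratio of the level of each gene inside over outside 3 gates, within GFPlow, GFPmed and GFPhigh, with exact 95% intervals for counting error (drawn down to -6). Pdcd1 is at 3.34, 3.00 and 1.40 for the stimulated gate and at -2.28, -2.41 and -1.86 for the central gate.

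Cells of central type carried little Pdcd1. The central gate (at least 2 UMIs after thinning over 9 genes, among them Igfbp4, Ly6c1, Ly6c2, Ccr7, Il7r, Tcf7, Lef1 and Satb1) held 32.2%, 36.6% and 27.8% of the cells of GFPlow, GFPmed and GFPhigh. Pdcd1 in the gate was 2.54 UPM against 15.2 outside in GFPlow (log2 ratio -2.28 [-5.70, -0.57]), 5.62 against 32.7 in GFPmed (-2.41 [-4.22, -1.23]) and 16.8 against 63.8 in GFPhigh (-1.86 [-3.02, -0.99]). Tox was lower in the gate in all 3 bins as well, at -0.49 [-0.98, -0.04], -0.89 [-1.35, -0.47] and -0.57 [-0.97, -0.20]. Ctla4 was lower in the gate in GFPlow (49.6 against 135.8 UPM, -1.44 [-1.98, -0.96]) and GFPmed (-0.70 [-1.16, -0.27]), but stood at 137.97 against 144.4 UPM in GFPhigh (-0.06 [-0.45, 0.30]). Lag3 had 3 UMIs in the 494 gated GFPhigh cells, 5.05 against 34.01 UPM outside (-2.54 [-5.07, -1.13]). Cd200 and Btla had intervals that spanned 0 in every bin, and Tigit in GFPlow and GFPhigh, with -0.98 [-2.03, -0.11] in GFPmed.

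For the effector gate the ratios of several members differed in sign between bins or thresholds. It took cells with at least 2 UMIs after thinning over 10 genes of activated, tissue-type Tregs, among them S100a4, S100a6, Ccr2, Itgb1, Vim and Crip1, and held 31.9%, 18.3% and 14.9% of the cells of GFPlow, GFPmed and GFPhigh. In GFPlow Ctla4 was 144.3 UPM in the gate and 91.9 outside (0.65 [0.28, 1.02]), while in GFPhigh it was 122.3 against 146.3 UPM (-0.24 [-0.76, 0.21]). The Ctla4 ratio in GFPhigh was 0.33 [-0.37, 0.90] with the gate at 3 UMIs. Lag3 in GFPhigh stood at 52.4 against 21.8 UPM, with 18 UMIs in the gate (1.29 [0.38, 2.09]). Pdcd1 was higher in the gate in GFPmed, at 43.2 against 18.8 UPM (1.22 [0.32, 2.02]), and the GFPhigh interval reached 0 (0.70 [-0.01, 1.32]). Btla had a ratio of 0.87 [0.23, 1.45] in GFPmed and -0.65 [-1.64, 0.14] in GFPhigh, which became 1.14 [0.47, 1.76] and -1.20 [-2.53, -0.26] without cells holding markers of other types. At a gate of 1 UMI the Btla ratios were 0.15 [-0.40, 0.69] and -0.27 [-0.84, 0.26], and both intervals spanned 0. The separation of Btla therefore depended on the gate. Cd200 had a ratio below 0 in all 3 bins, at -0.88 [-2.17, 0.13], -0.69 [-2.04, 0.30] and -0.46 [-1.29, 0.22], each with an interval that spanned 0. With the gate at 1 UMI the sign turned in the upper bins, to 0.65 [-0.05, 1.37] in GFPmed and 0.28 [-0.20, 0.75] in GFPhigh, so no direction can be given for Cd200.

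The difference between the outer bins was present outside both gates. Among cells in neither the stimulated nor the effector gate, 1406 in GFPlow and 1340 in GFPhigh, Pdcd1 stood at 9.11 and 39.2 UPM, a log2 ratio of 2.07 [1.28, 3.02]. In those cells the ratio was 1.56 [1.01, 2.17] for Cd200, 1.38 [0.47, 2.46] for Lag3, 0.91 [0.60, 1.22] for Tox and 0.57 [0.27, 0.88] for Ctla4. Btla (-0.04 [-0.47, 0.39]) and Tigit (-0.25 [-0.90, 0.39]) were level there too. Among cells of the effector gate only, 661 in GFPlow, the ratio was 2.75 [1.52, 4.30] for Pdcd1, 2.15 [0.76, 3.76] for Lag3, 1.81 [0.49, 3.24] for Cd200 and 0.74 [0.18, 1.28] for Tox. Ctla4 was the exception, at -0.14 [-0.73, 0.40], with 141.9 UPM in GFPlow and 127.7 in GFPhigh. The cells of the stimulated gate only were too few in GFPlow, 40 with 2 to 7 UMIs of Pdcd1, Ctla4, Cd200, Btla or Tox each, to fix a ratio; Tox alone had an interval above 0, from 2 GFPlow UMIs (2.13 [0.52, 5.52]). A gate of 2 UMIs misses cells whose transcripts were not captured, so cells in neither gate can still express the gate's genes.

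**Figure D4:**
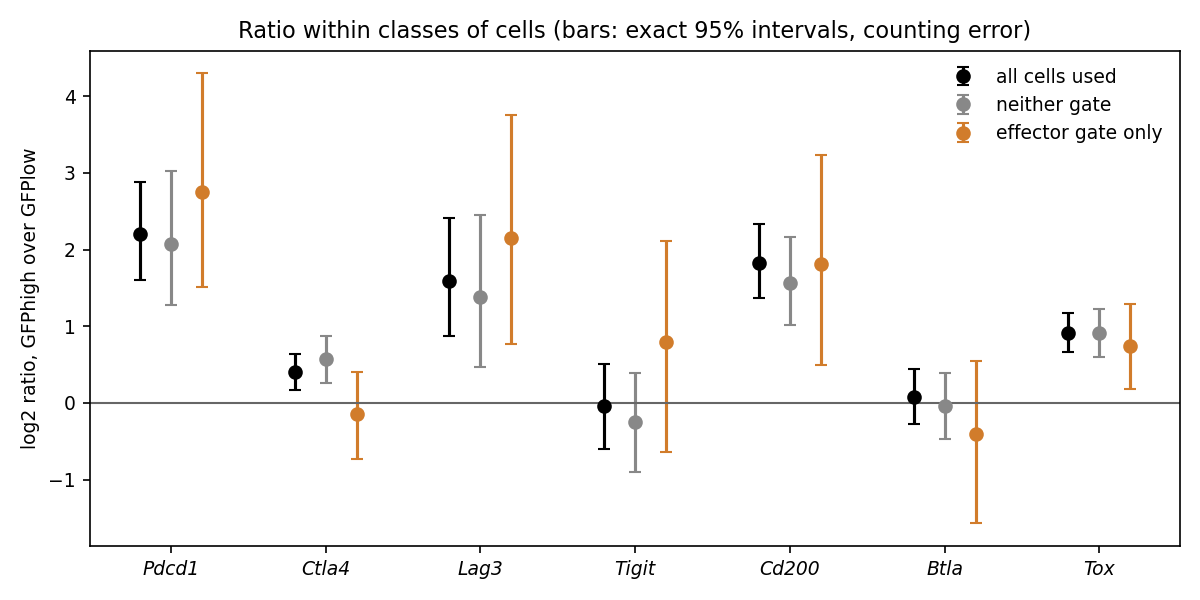
Log2 ratio of GFPhigh over GFPlow for the 7 genes over all cells used, over cells in neither gate and over cells of the effector gate only, with exact 95% intervals. Pdcd1 is at 2.20, 2.07 and 2.75, and Ctla4 at 0.40, 0.57 and -0.14.

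In GFPhigh, cells with follicular transcripts held more Pdcd1. The 39 GFPhigh cells with a UMI of Cxcr5 or Bcl6 after thinning held 11 Pdcd1 UMIs, 213.6 UPM against 47.8 outside (log2 ratio 2.22 [1.12, 3.06]), and were also higher for Cd200 (174.7 against 68.1 UPM, 1.43 [0.20, 2.32]), Btla (155.3 against 55.4 UPM, 1.57 [0.24, 2.51]) and Tox (311 against 159.1 UPM, 1.01 [0.14, 1.69]). Without cells holding markers of other types the ratios there were 1.87 [0.43, 2.87] for Pdcd1, 1.73 [0.49, 2.62] for Cd200, 1.75 [0.31, 2.75] for Btla and 1.20 [0.30, 1.89] for Tox. The 28 such cells of GFPmed held 4 Pdcd1 UMIs (2.34 [0.26, 3.63], and 2.21 [-0.32, 3.63] without cells holding those markers) and 0 of Cd200. The 44 such cells of GFPlow held 13 Ctla4 UMIs, 294.1 against 104.5 UPM (1.54 [0.56, 2.29]), but 1 Pdcd1 UMI and 0 of Btla.

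Few cells showed transcripts of several members at once. After thinning, 21.7% of GFPhigh cells [19.8, 23.7], 13.4% of GFPmed [11.7, 15.2] and 14.6% of GFPlow cells [13.1, 16.1] held a UMI of at least 1 of the 7 genes. At least 2 genes were found in 20 GFPlow cells (0.942% [0.576, 1.45]), 16 GFPmed cells (1.04% [0.596, 1.69]) and 46 GFPhigh cells (2.59% [1.90, 3.44]), and at most 3 in any cell. In GFPhigh, 10 of the 44 cells with Pdcd1 also held Tox (22.7%), against 7.28% of the cells without Pdcd1. The Tox level, from all UMIs, was 308 UPM in the Pdcd1 cells and 159.3 in the others (log2 ratio 0.996 [0.10, 1.69]), and 489 against 97.0 UPM in GFPmed (2.41 [1.19, 3.28]) and 356 against 84.6 in GFPlow (2.21 [0.44, 3.32]). These last 2 came from 9 Tox UMIs in 14 GFPmed cells and 5 in 14 GFPlow cells. In each of these bins 2 of the 14 cells held both genes after thinning. The intervals take UMIs as independent, although 1 cell can hold more than 1 of a gene. Ctla4 was likewise higher in GFPhigh cells with Pdcd1, at 370 against 137.7 UPM (1.46 [0.65, 2.11]), and in the 18 with Lag3, at 364 against 140.5 UPM (1.46 [0.15, 2.37]). Cd200 had 1 UMI in those 44 cells, 20.5 against 71.6 UPM, with an interval that spanned 0 (-1.22 [-7.11, 0.70]). Read the other way, the sign turned: Pdcd1 had 6 UMIs in the 50 GFPhigh cells with Cd200, 83.4 against 50.5 UPM (0.83 [-0.75, 1.89]). No direction can be given for this pair in GFPhigh. In the 14 GFPmed cells with Pdcd1, Cd200 had 3 UMIs, 162.9 against 27.7 UPM (2.77 [0.25, 4.17]), and in those of GFPlow 1 UMI (2.45 [-3.46, 4.42]). Most other pairs in GFPhigh had intervals that spanned 0, and counts this sparse leave a weak relation unseen.

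Over the 12 combinations of bin and class (stimulated gate only, effector gate only, both and neither), the genes closest in pattern to Pdcd1 among 6645 were the tetraspanin gene Cd81 (Pearson r = 0.97), Rgs16 (0.91), which restrains G protein signalling, and Tbc1d4 (0.91). Cd81 stood at 137.4 UPM in GFPhigh, 72.05 in GFPmed and 51.3 in GFPlow. For Cd200 they were Ephx1 (0.92), the interleukin 2 receptor alpha gene Il2ra (0.90) and Tmem158 (0.87). Those of Lag3 were Jak3 (0.92), Aga (0.91) and Slc33a1 (0.91), and those of Tox were Gfpt1 (0.94), Cyhr1 (0.92) and Stat5a (0.91). For Ctla4, Thoc3 (0.89) and Znhit6 (0.86) were among the closest, and those nearest were, for Tigit, Nek7, Topbp1 and Rfwd3 (0.96 to 0.94) and, for Btla, Pxmp4, Srsf4 and Ywhag (0.95 to 0.92). Among the members the highest r was that of Lag3 and Cd200 (0.74), followed by Pdcd1 with Cd200 (0.71) and Lag3 (0.69). The 12 points come from 3 libraries, the smallest class, 16 GFPlow cells in both gates, held 0 to 6 UMIs of a member, and these values are descriptions.

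The ligands and counterpart receptors of the members had a median ratio near that of all genes. Of 22 listed, 20 were in the table and 11 had at least 50 UMIs. None of the 11 was at least 2-fold higher in GFPhigh than in GFPlow and 1 was at least 2-fold lower. Over all genes 2.77% were higher and 1.74% lower, so among 11 genes a count of none higher is close to that share. The median log2 ratio was -0.02 against 0.04 over all genes. The one that was lower, Lgals3, which encodes a galectin that binds LAG-3, had 38, 18 and 3 UMIs in GFPlow, GFPmed and GFPhigh (-3.36 [-5.90, -1.91]). Cd274, the gene of PD-L1, was level at 59.9, 50.9 and 61.2 UPM (0.03 [-0.31, 0.38]). The CD200 receptor gene Cd200r1 stood at 12.3, 10.3 and 20.3 UPM (0.71 [0.02, 1.43]), and Pdcd1lg2, the gene of PD-L2, at 0.64 [-0.08, 1.40]. The costimulator gene Cd28, which shares its ligands with Ctla4, had a ratio of 0.21 [0.08, 0.34], and Cd96, a receptor of the TIGIT and CD226 group, one of 0.60 [0.34, 0.86].

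The list of other coinhibitory receptors had ratios in both directions. It also holds surface proteins of other kinds, among them the ectonucleotidase CD39 and folate receptor 4. Of 20 listed, 17 were in the table and 12 were measured. Of these 1 was at least 2-fold higher and none lower, where 2.77% and 1.74% of all genes were. The median was 0.03, against 0.04 over all genes. Lilrb4a, an immunoglobulin-like inhibitory receptor, had 14, 21 and 36 UMIs (1.43 [0.54, 2.47]). The next by size were Entpd1, the gene of the ectonucleotidase CD39 (-0.94 [-1.67, -0.26]), the folate receptor 4 gene Izumo1r (0.83 [0.75, 0.91]) and the killer lectin receptor gene Klrg1 (-0.66 [-1.16, -0.18]). Havcr2, the gene of TIM-3, had 3, 3 and 4 UMIs and Cd244 had 2 in GFPmed alone.

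Of the 23 listed signalling genes below the receptors, all measured, none passed 2-fold in either direction, where 2.77% and 1.74% of all genes did, and the median log2 ratio was 0.02. The phosphatase genes Ptpn6 (0.12 [-0.10, 0.35]) and Ptpn11 (0.17 [-0.19, 0.53]), whose products bind the tail of PD-1, had intervals that spanned 0. The largest differences were those of the Csk-binding adaptor gene Pag1 (-0.93 [-1.26, -0.60]), the Ras GTPase-activating protein gene Rasa3 (-0.41 [-0.58, -0.24]), the kinase gene Akt1 (-0.40 [-0.59, -0.21]) and Rasa2 (0.33 [0.02, 0.64]).

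Factors around Tox were more varied. Of 22 listed 16 were measured, with 2 at least 2-fold higher and 1 at least 2-fold lower, where 2.77% and 1.74% of all genes were. The median was 0.39, against 0.04 over all genes. Besides Nr4a1 itself (3.25 [2.93, 3.59]), which the sort selected, Bcl6 was higher at 8.21, 13.9 and 21.6 UPM (1.37 [0.62, 2.22]). Bcl6 encodes a repressor that promotes the follicular programme. Cxcr5, the other gene used to pick follicular cells, did not rise with GFP. From the lowest bin to the highest, its UPM values were 30.4, 19.1 and 29.95. The share of cells with a thinned UMI of Cxcr5 or Bcl6 was 2.07%, 1.82% and 2.20% in the same order. A rise of the follicular programme as a whole was therefore not seen. Maf was lower at 270.1, 107.9 and 127.7 UPM (-1.08 [-1.28, -0.88]). Bach2, a repressor of effector differentiation, followed at 0.89 [0.65, 1.13]. Nfatc1 (0.72 [0.48, 0.97]) and Nfatc2 (-0.66 [-1.002, -0.33]), which encode calcium-regulated factors, differed in opposite directions. Tox2 and Tox3 had 0 UMIs over the 5435 cells, which allows up to 0.416 UPM, and Tox4 was level (0.05 [-0.30, 0.40]).

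**Figure D5:**
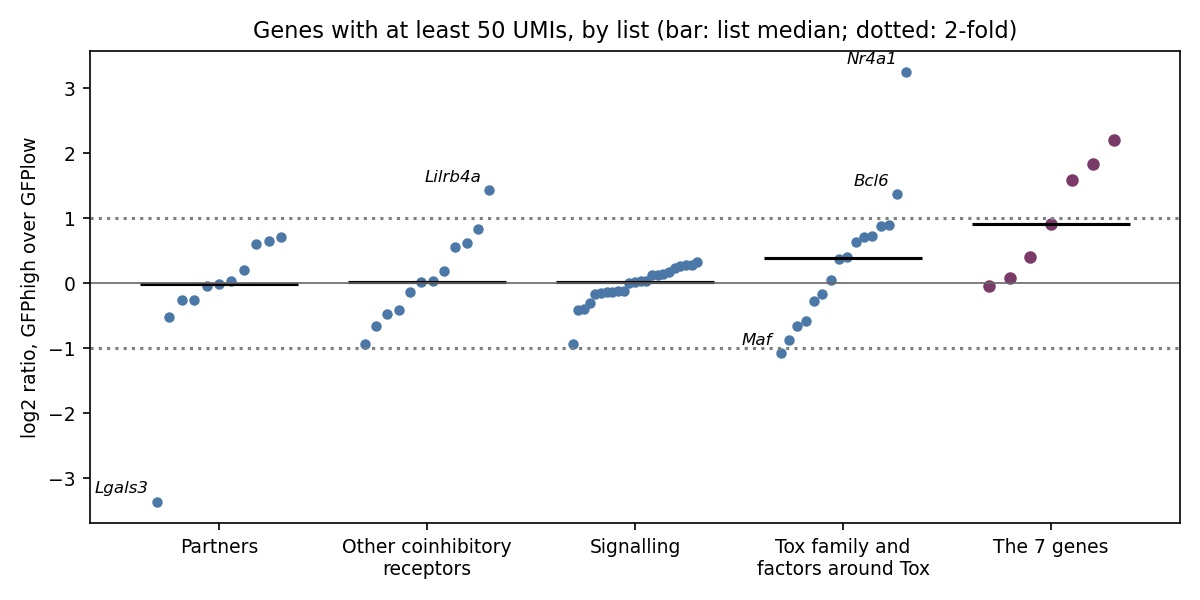
Log2 ratio of GFPhigh over GFPlow for every gene with at least 50 UMIs in 4 lists of related genes and for the 7 genes, 1 point per gene, with a bar at each list's median and dotted lines at 2-fold. Medians are -0.02 for partners, 0.03 for other coinhibitory receptors, 0.02 for signalling genes, 0.39 for factors around Tox and 0.91 for the 7 genes.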

How the data were processed

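Single-cell inDrops libraries of 3 GFP bins were analysed. The authors deposited raw UMI counts per gene and cell from NextSeq500 reads; per the submitters' processing notes, TopHat2, SAMtools and the mm10 genome were used, and their versions, the annotation and the UMI rule are not given in the sources used here. All columns matched a labelled cell and 0 were left unused. UMIs were summed over the cells with 500 or more in each bin with Python 3.11.15, numpy 2.4.6 and scipy 1.17.1. No doublets were removed. Ratios used a pseudocount of 0.5 UMI and were checked on simulated libraries. Gates and shares used cells thinned to 500 UMIs without replacement, and class levels all their UMIs. Each bin is 1 library, so no test was made.

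The members, lists, gates and alternatives were chosen with earlier results of these data known. Members were always named; from each list, genes past 2-fold and up to 4 with the largest absolute ratio among those with at least 50 UMIs; and for each member the 3 genes of most similar pattern among those with at least 100 UMIs, without mitochondrial, ribosomal protein, antigen receptor, unnamed and gate genes; 1 gene of similar pattern to Ctla4 and 1 gene of the central gate are not reported here. Cd274, Cd28, Cd244, Havcr2, Ptpn6, Ptpn11, Nfatc1, Nfatc2, Tox2, Tox3, Tox4 and Cxcr5 were added for their roles after their values were seen. The B cell gate of 5 UMIs was set after seeing the data. Alternatives were other minimum depths, TMM scaling (edgeR), scaling without ribosomal protein genes, equal weight per cell, thinning, another pseudocount, other gates, and leaving out cells with markers of other types, shared barcodes or the most UMIs of a member. Gene positions come from GENCODE M21 and promoters from RefSeq.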

Additional observations from a re-analysis of the deposited data

Results flagged for a closer look

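The 671 cells with fewer than 500 UMIs, which entered no comparison, also held transcripts of every member, above the 3 counts that a count of 0 allows. Over the 3 libraries together they had 45 UMIs of Tox, 31 of Ctla4, 16 of Btla, 12 of Pdcd1, 12 of Cd200, 7 of Tigit and 4 of Lag3 among 269809 UMIs. Their Tox level was 166.8 UPM [121.7, 223.2], against 114.98 in the cells used, so that the interval excluded the level of deeper cells over the libraries together, although within each bin it held the bin's own level. For the other 6 genes, over the libraries together, the interval of the shallow cells held the level of the cells used, such as 114.9 UPM [78.1, 163.1] against 113 for Ctla4 and 44.5 [22.98, 77.7] against 27.98 for Pdcd1. Within GFPmed the shallow cells held 5 Pdcd1 UMIs, 92.7 UPM [30.1, 216.3] against 23.1 in the cells used, an interval that excluded the bin's own level.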

How the results depend on the processing

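Under the 10 alternatives each, the log2 ratios of GFPhigh over GFPlow ranged from 1.84 to 2.32 for Pdcd1, 1.35 to 2.11 for Cd200, 1.37 to 2.08 for Lag3, 0.86 to 0.96 for Tox and 0.35 to 0.46 for Ctla4, and from -0.21 to 0.20 for Tigit and -0.24 to 0.17 for Btla, whose sign was not fixed. Over the 3 pairs, all but 2 of these values stayed within the interval of the reported ratio. Both came from thinning to 500 UMIs, with 1.35 for Cd200 in GFPhigh over GFPlow and 0.76 for Lag3 in GFPhigh over GFPmed. Thinning keeps fewer UMIs and weights cells equally, and the cause was not tested. The count of members at least 2-fold higher in GFPmed than in GFPlow went from 1 to 0 with thinning, and that in GFPhigh over GFPmed from 3 to 5 when 1.5-fold was used, while the other 64 alternative counts stayed within 1.5 times. Shares of cells at other depths moved beyond their interval in 40 cases and did not in 2, by construction, since more UMIs per cell were kept. Alternative gate ratios left the interval of the reported value in 10 cases. With genes of at least 10 UMIs, 6.24% of genes passed 2-fold upward and 4.06% downward for the outer bins, 5.09% and 3.65% for GFPmed over GFPlow, and 4.76% and 3.56% for GFPhigh over GFPmed. No paired analysis was possible because each bin is 1 library and the result comes from no test. Variation between mice and libraries could not be measured.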

Other observations

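Some genes of the lists had fewer than the required 50 UMIs and are named here after their values were seen. Eomes, a T-box factor gene of cytotoxic and memory lymphocytes, had 2, 13 and 33 UMIs in GFPlow, GFPmed and GFPhigh, in 1, 4 and 21 cells. Cd160, the gene of another receptor of HVEM besides BTLA, had 8, 4 and 28 UMIs, in 7, 4 and 21 cells. Of the 42 GFPhigh cells with either gene 17 also held a Foxp3 UMI (40.5% [25.6, 56.7]), against 30.5% of all GFPhigh cells, at median depths of 1636.5 UMIs for those 42 and 1129 for all. Their Pdcd1 count was 1 UMI, 12.8 UPM against 52.9 in the other GFPhigh cells (log2 ratio -1.47 [-7.36, 0.46]), and their Cd200 count 9 UMIs in 8 cells, 115.4 against 68.9 UPM (0.82 [-0.41, 1.71]). The collagen receptor gene Lair1 went the other way, with 17, 15 and 2 UMIs. Nr4a2 had 0, 9 and 11 UMIs and Cd80 had 2, 5 and 5.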
